A study of Caenorhabditis elegans with 2 samples.

Results

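The 9 genes described here make, load, take up or break down acetylcholine, glutamate and GABA in Caenorhabditis elegans: unc-17, cha-1, cho-1, ace-1 and ace-2 for acetylcholine, eat-4 for glutamate, and unc-25, unc-47 and snf-11 for GABA. They were chosen by name, not by a peak value, as synthesis, transport and breakdown genes of these 3 transmitters. Below they are also called identity genes. They are 9 of 19973 protein-coding genes on the nuclear chromosomes of the annotation used. Because unc-17 and cha-1 start within 2 bp of each other, the 9 genes stand at 8 loci. A gene was counted in a peak list when the summit of a peak, its single highest base, lay within 5 kb of any of the gene's annotated transcript starts.

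The peaks came from chromatin immunoprecipitation followed by sequencing (ChIP-seq) of UNC-86, in whole hermaphrodite animals labelled as late embryos, taken 3.5 hours after eggs were synchronized by bleaching. Strain OP476 has the genotype unc-119(tm4063) III; wgIs476, and its integrated transgene gives UNC-86 with GFP and FLAG fused at the C-terminus; the description names an antibody to GFP, and chromatin was broken by sonication. Both samples, labelled biological replicates 1 and 2, belong to 1 group, so no treated, mutant or other-stage animals stand beside them. The precipitated protein was the tagged transgene product and the material was the whole animal, so a peak cannot be assigned to a neuron class, and peak lists hold no expression values against which the labelled tissue could be checked.

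UNC-86 belongs to class IV of the POU homeodomain transcription factors, with the vertebrate Brn3 proteins, and is made in a limited set of neurons. From work other than these data it is known as a regulator of transmitter identity in cholinergic neurons such as the IL2 sensory neurons. The same is known for glutamatergic neurons such as the touch receptor neurons, where another homeodomain protein, MEC-3, is a partner. In C. elegans, GABA identity of the D-type motor neurons is known to depend on another homeodomain factor, UNC-30.

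Of the 9 genes, 0 had a summit of the list of peaks past the irreproducible discovery rate (IDR) threshold within 5 kb, beside 9.93% of all protein-coding genes. In the pooled list, called by the authors on both replicates together and including regions that the IDR analysis treats as background, 4 of the 9 genes had a summit, namely cho-1, ace-1, unc-25 and snf-11, beside 63.1% of all protein-coding genes. The list of replicate 1 placed a summit near 8 of 9, all but cho-1, beside 75.8% of all genes, and that of replicate 2 near 8 of 9, all but unc-47, beside 77.4%. Summits found in both replicates within 100 bp of each other stood near 2 of 9, unc-25 and snf-11, beside 31.6% of all genes. With these backgrounds, a summit of the pooled or a replicate list near one of the genes is a common event. The IDR list, the strictest one, left all 9 without a summit. Beside 9.93% of all genes, a count of 0 among 9 cannot be told apart from the general share.

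Summits of the IDR list numbered 816, with a signal of 64.7 to 838 and a median of 90.9. The pooled list held 12784 peaks with a median signal of 31.8, replicate 1 held 17498 with a median of 16.5, and replicate 2 held 18470 with a median of 17.3. Signal is the value the authors' peak caller gave to each peak relative to a control, and it can be compared within a list only. At the median peak of the pooled list the q-value, the expected share of false calls among peaks at least that strong, was 0.84, and 1097 of its 12784 peaks had a −log10 q of at least 1.3. Of the replicate 1 summits, 3790 (21.7%) had a replicate 2 summit within 100 bp. No number of reads was given, so the depth behind these values is unknown.

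**Figure D1:**
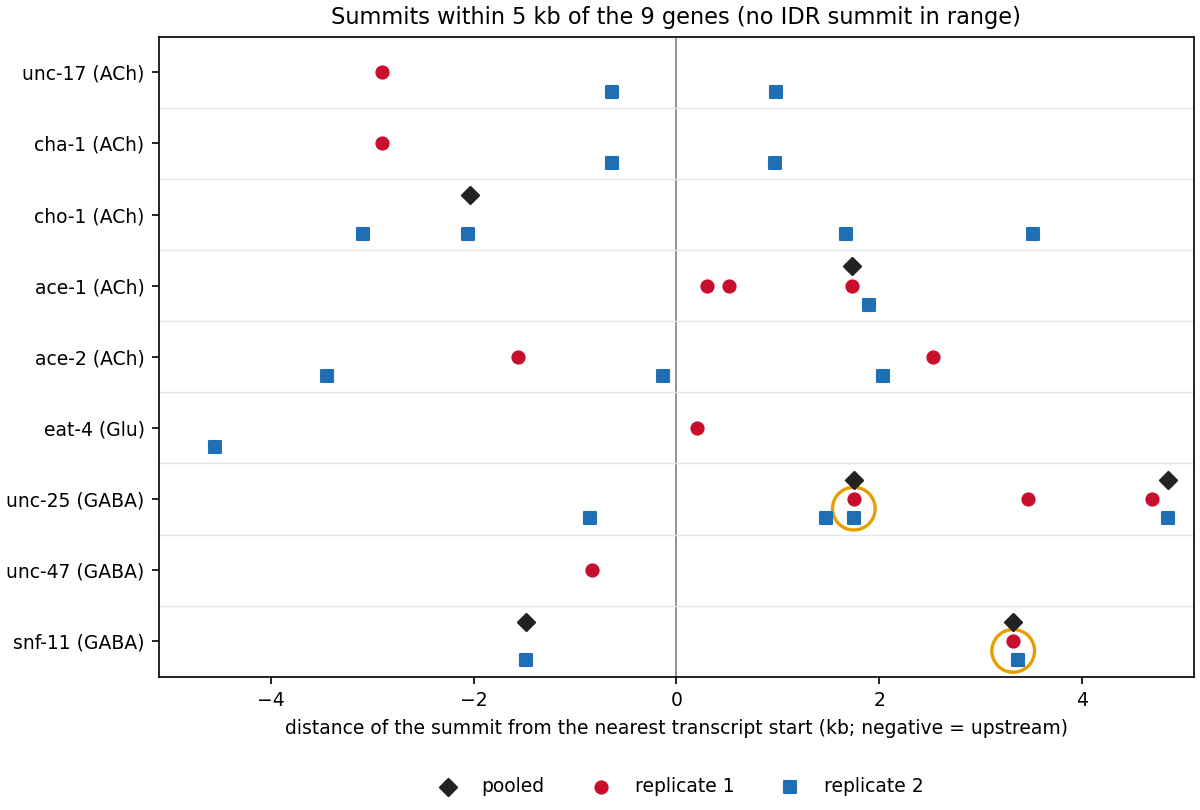
Position of every summit within 5 kb of the 9 genes, as distance in kb from the nearest transcript start of the gene (negative is upstream), with the pooled list as black diamonds, replicate 1 as red circles and replicate 2 as blue squares. Orange rings mark the 2 places, at unc-25 and snf-11, where summits of both replicates lay within 100 bp; no diamond lies within 1 kb of a start.

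Acetylcholine is made by choline acetyltransferase, the product of cha-1, and loaded into synaptic vesicles by the transporter UNC-17. Both genes lie on the minus strand of one nested locus and share a first exon, unc-17 at chrIV:3618259-3624699 and cha-1 at chrIV:3613931-3624697 (ce11, the WBcel235 assembly), so each summit below counts for both. Replicate 1 had 1 summit, 2901 bp upstream of the unc-17 start, with a signal of 13.2 and rank 16598 of 17498. Replicate 2 had 2, one 637 bp upstream with a signal of 17.01 and rank 9797 of 18470, and one 977 bp downstream in an intron with a signal of 15.02 and rank 14193. None was found in both replicates, as the replicate 1 summit lay 2264 bp from the closest replicate 2 summit. The closest pooled summit was 8.64 kb upstream, 279 bp from a start of ZC416.2, with a signal of 47.5 and rank 1680. The closest IDR summit lay 72.4 kb away.

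The replicate 2 summit 637 bp upstream of unc-17 is shown because it fell inside an octamer, ATGCAAAT, a POU factor recognition sequence. It was the only octamer within 5 kb of the start, with its middle 1 bp from the summit. Here and below, distances between a summit and a pattern are taken to the middle of the pattern. The octamer is in capitals in the plus-strand sequence of chrIV:3625276-3625396.
unc-17, replicate 2: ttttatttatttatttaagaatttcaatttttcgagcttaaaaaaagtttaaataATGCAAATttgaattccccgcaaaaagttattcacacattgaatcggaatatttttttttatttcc
An octamer occurred within 100 bp of the summit in 1.65% of all replicate 2 peaks and within 5 kb of a start in 60.5% of all protein-coding genes. The summit's q-value was 0.859, and 53.0% of the replicate 2 list was stronger, so the sequence match stands at a peak from the weaker side of a single list.

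The high-affinity choline transporter CHO-1 returns choline to cholinergic terminals. Its gene lies on the minus strand at chrIV:13209730-13214566, and it had summits in the pooled list and replicate 2 but not in replicate 1. The pooled summit lay 2031 bp upstream of the start with a signal of 26.1, rank 12077 of 12784, close to the foot of the list. Replicate 2 had 4 summits, more than at any other of the 9 genes except unc-25, which also had 4. Upstream they lay at 2051 bp with a signal of 23.5 and rank 2943, and at 3085 bp with 22.1 and rank 3727. Downstream they lay in introns at 1675 bp with 14.8 and rank 14750, and at 3516 bp with 21.6 and rank 4068. The gene with the closest start to the summit at 3516 bp was C48D1.9, at 1384 bp. The pooled summit and the replicate 2 summit at 2051 bp were 20 bp apart, whereas the closest replicate 1 summit to the pooled one was 7147 bp from it. That replicate 1 summit was at 5.12 kb from the cho-1 start, just outside the search distance, 216 bp from a start of C48D1.9, with a signal of 14.1.

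Both cho-1 windows below are plus-strand sequence, chrIV:13216537-13216657 around the pooled summit and chrIV:13210990-13211110 around the replicate 2 summit in the intron. The first is shown as the only pooled summit of the gene, and the second because it holds the one match of the relaxed class IV POU site, ATNATTAAT, among the members' summit windows. Capitals mark that match, read on the opposite strand, with an overlapping homeodomain core, TAATTA.
cho-1, pooled: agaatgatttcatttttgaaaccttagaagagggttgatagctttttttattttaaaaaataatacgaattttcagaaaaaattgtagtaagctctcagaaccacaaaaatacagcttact
cho-1, replicate 2: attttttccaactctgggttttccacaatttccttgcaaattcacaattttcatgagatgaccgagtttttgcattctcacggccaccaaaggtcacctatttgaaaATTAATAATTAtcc
The upstream window was AT-rich, with 26.4% G and C against a median of 36.4% over all pooled windows of this length, and held none of the 6 patterns searched. In the intronic window the relaxed site lay 51 bp from the summit, a match that 2.14% of all replicate 2 windows also had. A strict class IV site, ATAATTAAT, occurred once within 5 kb of the cho-1 start, 4836 bp downstream and 280 bp from the replicate 1 summit outside the range. Strict sites occurred within 5 kb of 34.9% of all protein-coding genes.

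ACE-1 is one of the acetylcholinesterases that end the transmitter's action, and its gene lies on the plus strand at chrX:16367293-16373789. A pooled summit with a signal of 31.4, rank 6656 of 12784, lay 1727 bp downstream of the start in an intron. Replicate 1 had a summit on the same base, with a signal of 18.6 and rank 5805 of 17498. It had 2 others, at 306 bp with 14.9 and rank 12004, and at 514 bp with 13.9 and rank 14648. The single replicate 2 summit lay 1898 bp downstream in a coding exon, with 13.9 and rank 17333 of 18470. At 171 bp from the replicate 1 summit it missed the 100 bp limit and entered only when 250 bp was allowed.

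The pooled ace-1 window, plus strand of chrX:16368960-16369080, is shown because it was the one pooled window among the 6 near members with any of the 6 patterns. Capitals mark the TAATTA core, 27 bp from the summit, which 9.25% of all pooled windows also held.
ace-1, pooled: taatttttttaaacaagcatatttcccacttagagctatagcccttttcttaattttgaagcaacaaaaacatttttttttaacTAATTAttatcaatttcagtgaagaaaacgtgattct
No strict or relaxed class IV site and no octamer occurred within 5 kb of the ace-1 start.

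ACE-2, a second acetylcholinesterase, is encoded on the minus strand at chrI:3301368-3307935. Replicate 1 had a summit 2532 bp downstream in an intron, with a signal of 22.8 and rank 2822 of 17498. Its q-value of 0.364 was the lowest of all summits near the 9 genes in these 3 lists. A start of Y44E3A.7 was slightly closer to this summit, at 2477 bp. The other replicate 1 summit lay 1566 bp upstream with 14.6 and rank 12545. Replicate 2 had 3 summits, at 131 bp upstream with 16.02 and rank 11820, at 2039 bp downstream in a coding exon with 16.3 and rank 11193, and at 3441 bp upstream with 14.5 and rank 15580. For the summit at 2039 bp too, a start of Y44E3A.7 was slightly closer, at 1984 bp. The summit at 131 bp was the closest to a transcript start of any member's. Summits of the replicates came no closer to each other than 493 bp, and the closest pooled summit, with a signal of 39.7, was at 5.99 kb.

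For acetylcholine as a whole, with unc-17 and cha-1 at 1 locus, 2 of 5 genes had a pooled summit, beside 63.1% of all protein-coding genes. A replicate 1 summit stood near 4 of 5, beside 75.8%, and a replicate 2 summit near 5 of 5, beside 77.4%. Summits found in both replicates stood near 0 of 5, beside 31.6%. Over the 40.4 kb searched at these genes there were 2 distinct pooled summits, 6 of replicate 1 and 10 of replicate 2. That is 0.496, 1.49 and 2.48 summits per 10 kb, beside 1.27, 1.75 and 1.84 per 10 kb over the genome.

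**Figure D2:**
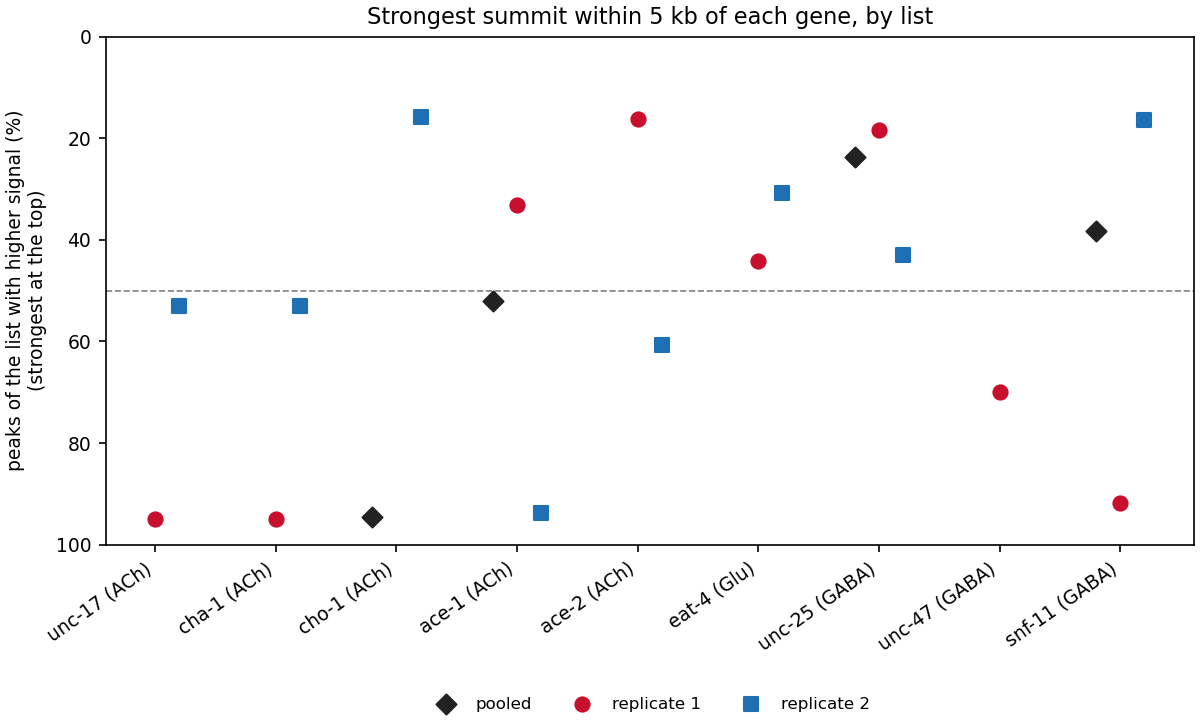
Percentage of each list with a higher signal than the strongest summit within 5 kb of each gene, with strong peaks at the top of the axis and the middle of the list as a dashed line. Replicate 2 at cho-1 (15.9%), replicate 1 at ace-2 (16.1%) and replicate 2 at snf-11 (16.3%) stand highest, and a missing symbol means that the list had no summit in range.

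Glutamate has one gene in the set, eat-4, which encodes the vesicular glutamate transporter and lies on the plus strand at chrIII:9136887-9141827. Replicate 1 had a summit 201 bp downstream of a start, in an intron, with a signal of 17.1 and rank 7739 of 17498. Replicate 2 had a summit 4546 bp upstream with 19.8 and rank 5676 of 18470, and the gene with the closest start to it was ZK512.10, at 1453 bp. These 2 summits were 4988 bp apart. The closest pooled summit, with a signal of 29.4 and rank 8376, lay 6.54 kb downstream, 240 bp from a start of ZK512.2, and the closest IDR summit was 32.7 kb away. Both replicates thus gave eat-4 a summit from the upper 50% of their lists, at different places. Their q-values were high, 0.778 in replicate 1 and 0.748 in replicate 2. At the median peak of these lists the q-value was 0.813 and 0.846.

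The replicate 1 window of eat-4, plus strand of chrIII:9137269-9137389, is shown for a compound match in capitals: an octamer, ATGCAAAT, that runs into AATGCAT on both strands. AATGCAT is the element that UNC-86 and MEC-3 are known to bind together in promoters of touch receptor neuron genes.
eat-4, replicate 1: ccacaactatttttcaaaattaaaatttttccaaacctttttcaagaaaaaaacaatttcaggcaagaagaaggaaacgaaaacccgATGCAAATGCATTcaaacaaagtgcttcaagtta
The match lay in a coding exon of eat-4, 31 bp from the summit for the octamer and 35 bp for the closer AATGCAT. Among all replicate 1 windows, 1.89% held an octamer and 3.06% held AATGCAT. Over the 29 windows of both replicate lists near members, 2 held an octamer, at unc-17 and eat-4, and 1 held AATGCAT, at eat-4. No strict class IV site occurred within 5 kb of an eat-4 start.

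GABA is made by glutamic acid decarboxylase, the product of unc-25, which lies on the plus strand at chrIII:12942651-12949883. Here the strongest pooled summit of the 9 genes was found, with a signal of 39.1, rank 3019 of 12784 and a q-value of 0.546, in an intron 1749 bp downstream of a start. Replicate 1 had its summit on the same base with 22.0 and rank 3207 of 17498, and replicate 2 also on the same base with 14.02 and rank 17066 of 18470. The replicates therefore gave one position a place in the upper part of one list and near the foot of the other. A second pooled summit lay 4846 bp downstream in an intron, with 31.8 and rank 6364, just inside the search distance. Near it replicate 2 had a summit at 4850 bp with 18.1 and rank 7916. Replicate 1 had one at 4693 bp with 14.3 and rank 13363, 157 bp from that of replicate 2. Y39E4A.1 was the gene with the closest start to this pooled summit, at 3877 bp, and to these replicate summits. The remaining summits were 1 of replicate 1, at 3466 bp in a coding exon with 15.96, and 2 of replicate 2, at 1474 bp in an intron with 16.2 and at 847 bp upstream, in the 3′ UTR of epg-3, with 16.5.

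The unc-25 window at 1749 bp, plus strand of chrIII:12944378-12944498, is shown as the strongest pooled summit near a member with summits of both replicates. Capitals mark GCCTAA, the opposite strand of TTAGGC, which is the repeat unit of C. elegans telomeres.
unc-25, pooled: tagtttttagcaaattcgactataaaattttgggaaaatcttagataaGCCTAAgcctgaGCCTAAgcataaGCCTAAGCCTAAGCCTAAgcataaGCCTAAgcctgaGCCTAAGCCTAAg
Within 100 bp of this summit TTAGGC occurred 9 times on either strand, and 31 of the 172 30-base words of that window occurred more than once in the genome. Windows with at least 9 copies made up 0.18% of the pooled list, 23 of 12784, and 0 of the 816 IDR peaks. Whether the repeat bears on the signal at this position was not tested.

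UNC-47, the transporter that loads GABA into vesicles, had the fewest summits. Its gene, on the minus strand at chrIII:10183762-10186260, had 1 replicate 1 summit, 829 bp upstream with a signal of 14.8 and rank 12239 of 17498. Of the 30-base words around that summit, 44.2% occurred more than once in the genome, the highest share among the members' windows. Replicate 2 had none within 5 kb, its closest lying 8.80 kb upstream with 13.9, and the closest pooled summit was 15.1 kb away.

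SNF-11, the plasma membrane transporter that takes GABA back into cells, is encoded on the minus strand at chrV:11305070-11308446. Its pooled summit 1486 bp upstream had a signal of 34.2 and rank 4885 of 12784. Replicate 2 had a summit on the same base with 23.3 and rank 3016 of 18470, while the closest replicate 1 summit was 4283 bp from it. The other pooled summit lay 3320 bp downstream, in the gene's own 3′ UTR and 147 bp from a start of srh-45, with 31.3 and rank 6750. Replicate 1 had a summit on that base with 13.4 and rank 16064 of 17498, and replicate 2 had one 51 bp away with 19.5 and rank 6089. The shared summit of snf-11 is thus closer to the start of another gene than to its own. An IDR peak with a signal of 348, rank 12 of 816, lay 5.78 kb upstream, just outside the search distance, beside the snoRNA gene T03F7.8, and it was the closest IDR summit to any of the 9 genes.

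The upstream snf-11 window, plus strand of chrV:11309872-11309992, is shown because it carried the strongest snf-11 summit of the pooled list and of replicate 2. It has no capitals, since none of the 6 patterns occurred in it.
snf-11, pooled: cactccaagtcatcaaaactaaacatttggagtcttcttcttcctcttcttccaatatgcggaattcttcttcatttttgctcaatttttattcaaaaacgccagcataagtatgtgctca
The strict class IV site, ATAATTAAT, occurred 2 times within 5 kb of the snf-11 start. The copy 1248 bp upstream lay 238 bp from the pooled summit, outside the 100 bp window. Across the 9 genes this site occurred within 5 kb of cho-1 and snf-11 only.

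For GABA, 2 of 3 genes had a pooled summit, beside 63.1% of all protein-coding genes. A replicate 1 summit stood near 3 of 3, beside 75.8%, and a replicate 2 summit near 2 of 3, beside 77.4%. Summits found in both replicates stood near 2 of 3, beside 31.6%. The glutamate gene had no pooled summit, 1 summit in each replicate and none in common. Per 10 kb searched, GABA genes had 1.33 pooled summits, 1.66 of replicate 1 and 2.0 of replicate 2. The glutamate gene had 0, 0.976 and 0.976, and the whole genome 1.27, 1.75 and 1.84, so the GABA values were near those of the genome. The highest pooled signal was 39.1 at a GABA gene and 31.4 at an acetylcholine gene. With 5, 1 and 3 genes, and one locus counted for 2 of the acetylcholine genes, these differences between transmitters were not tested and are given as counts.

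Across the 3 lists together there were 35 summits near the 9 genes, each list counted by itself: 6 pooled, 12 of replicate 1 and 17 of replicate 2. The 6 pooled summits had signals of 26.1 to 39.1 with a median of 31.6, close to the median of 31.8 over the list, and 3 of the 6 were above it. Of the replicate 1 summits 4 of 12 were above their list's median, and of the replicate 2 summits 7 of 17. None of the 35 lay within 300 bp of a small RNA gene. Introns held 3 of the 6 pooled summits, 7 of the 12 and 6 of the 17. In 4 of 6, 9 of 12 and 12 of 17 the gene with the closest start was one of the 9. That is favoured by the search itself, which took summits near the members' starts. Shares over the whole lists are not given here, so the counts by small RNA gene and by intron only describe these summits. Members just inside the search distance were unc-25 at 4850 bp, 4846 bp and 4693 bp and eat-4 at 4546 bp. Some genes without a summit of a list in range had one just outside. These were cho-1 (replicate 1, 5.12 kb), snf-11 (IDR list, 5.78 kb) and ace-2 (pooled list, 5.99 kb). Where a list already had a summit in range, its further summits beyond 5 kb are not listed here.

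Closer to the starts the counts were lower. Within 1 kb, 0 of 9 genes had a pooled summit, beside 29.1% of all protein-coding genes, 3 had one of replicate 1 beside 35.8%, and 4 one of replicate 2 beside 37.1%. Within 2 kb the counts were 3 beside 40.7%, 5 beside 50.7% and 7 beside 52.6%. At 10 kb they were 8 beside 81.8%, 9 beside 91.5% and 9 beside 92.5%, and the IDR list had its first entry, snf-11, beside 16.3%. The share of all genes was little changed when only the 16767 genes with a searched stretch as long as the members' were taken: 9.23% for the IDR list, 60.2% for the pooled list, 73.6% for replicate 1, 75.4% for replicate 2 and 29.2% for summits of both replicates.

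**Figure D3:**
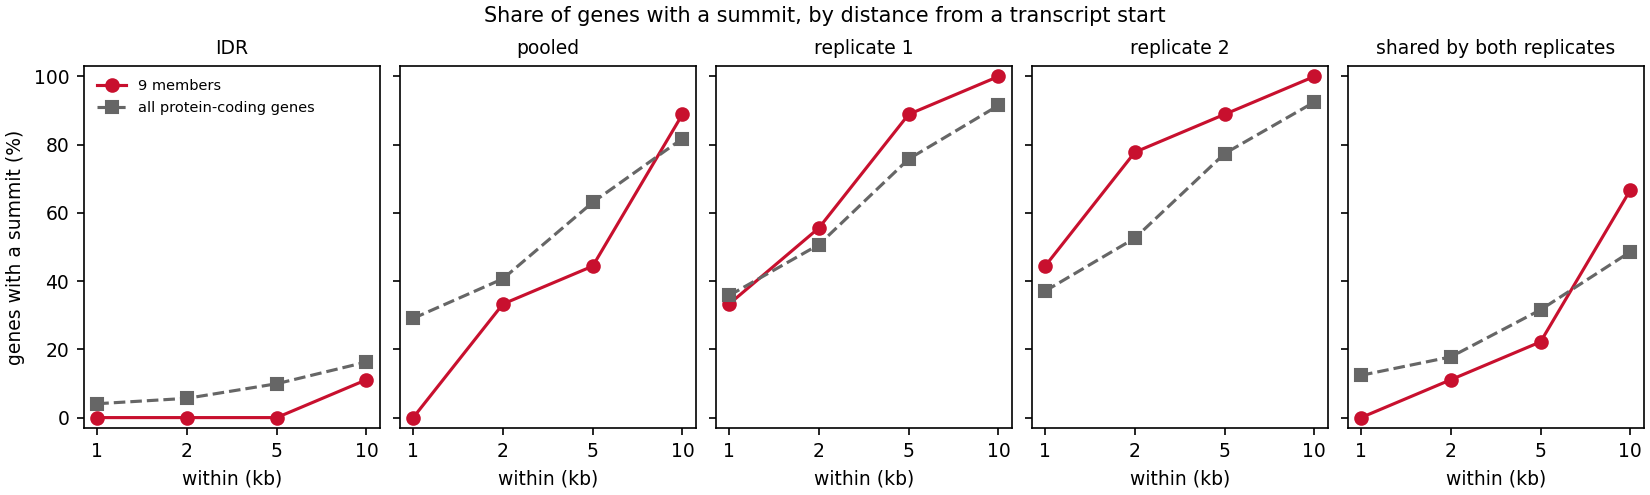
Percentage of genes with a summit within 1, 2, 5 and 10 kb of a transcript start, with the 9 genes as red circles and all 19973 protein-coding genes as grey squares, in one panel for each list and for summits found in both replicates. In the pooled panel the 9 genes are below all genes at 1, 2 and 5 kb and above them at 10 kb; in the panel of replicate 2 they are above at every distance.

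The receptors, uptake carriers and accessory proteins of the same transmitters were taken as a further list of 82 genes, of which 80 were found in the annotation. Of these 80, 1 gene (1.25%) had an IDR summit within 5 kb, beside 9.93% of all protein-coding genes. A pooled summit stood near 54 (67.5%), beside 63.1% of all genes. A replicate 1 summit stood near 64 (80.0%), beside 75.8%, and a replicate 2 summit near 68 (85.0%), beside 77.4%. Summits of both replicates stood near 21 (26.2%), beside 31.6%. By transmitter, a pooled summit was found near 26 of 37 acetylcholine genes (70.3%), 20 of 32 glutamate genes (62.5%) and 8 of 11 GABA genes (72.7%). Summits of both replicates were found near 10 of 37 (27.0%), 7 of 32 (21.9%) and 4 of 11 (36.4%). The strongest pooled signal per gene had a median of 32.8 over the 4 identity genes with one, and of 35.3, 31.2 and 34.6 over the acetylcholine, glutamate and GABA genes of the further list.

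**Figure D4:**
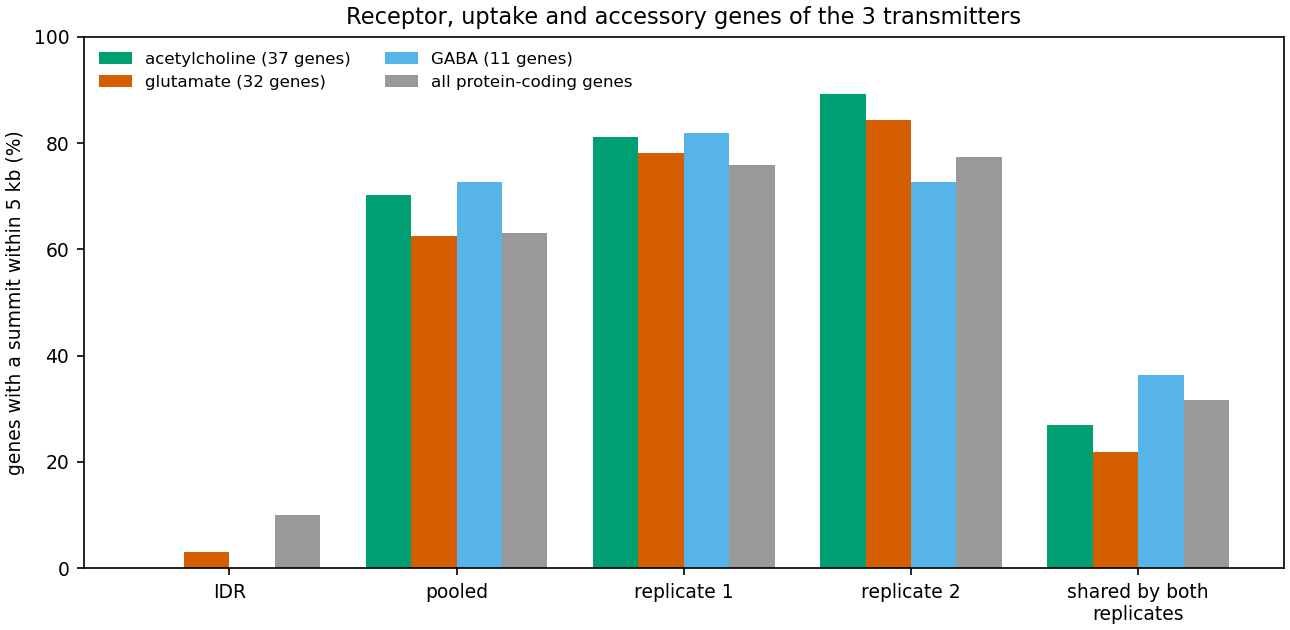
Percentage of receptor, uptake and accessory genes with a summit within 5 kb, for acetylcholine (37 genes, green), glutamate (32 genes, orange) and GABA (11 genes, blue), beside all protein-coding genes (grey), for each list and for summits of both replicates. The only IDR bar among the transmitters is that of glutamate, 1 of 32, against 9.93% of all genes.

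Among them, sol-2, which encodes an accessory subunit of glutamate receptors, was the gene with an IDR summit. That summit had a signal of 244, rank 33 of 816, and lay in an intron of K05C4.2, 283 bp from a start of that gene and 3101 bp downstream of the sol-2 start. Replicate 1 gave it 122, rank 35, and replicate 2 gave it 118, rank 42. The strongest pooled summit of the acetylcholine list was at unc-63, a subunit of muscle nicotinic receptors, 1334 bp upstream, with a signal of 57.9, rank 1041, and a q-value of 0.038. Replicate 1 had 33.8 there, rank 919, and replicate 2 had 24.7, rank 2377, at 204 bp from the pooled summit. The chaperone gene of nicotinic receptors, ric-3, followed with 45.3, though cdgs-1 was the gene with the closest start, and lgc-46, an acetylcholine-gated chloride channel gene, with 44.7 at 150 bp downstream.

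For glutamate the next strongest were glr-6, a member of the ionotropic glutamate receptor family, with 47.02 and asg-2 as the gene with the closest start, and glna-3, a glutaminase, with 43.8 and gras-1 as the gene with the closest start. For GABA they were gta-1, the GABA transaminase, with 40.7 at 453 bp upstream, and the GABA-B receptor subunits gbb-1 with 39.0 and gbb-2 with 38.2, at 4.50 kb and 4.17 kb upstream. A start of rfth-1 was 389 bp from the gbb-2 summit. The strongest of the 6 pooled summits at identity genes, 39.1 at unc-25, falls between the strongest of gta-1 and gbb-1.

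Over the 6 pooled windows of the members, 0 held the strict class IV site, 0 the relaxed site, 0 AATGCAT, 0 the octamer, 1 the TAATTA core and 0 the repeat GAGAGAG. All pooled windows held these in 0.993%, 2.03%, 3.15%, 1.74%, 9.25% and 6.04%. Patterns were read on both strands within 100 bp of a summit; the relaxed site includes the strict one, and the strict one contains the core. With 6 windows and shares this low, no difference from the list could be seen.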

How the data were processed

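UNC-86::GFP ChIP-seq peaks of 2 biological replicates, so labelled, of 1 group were used as deposited. The authors deposited for each peak a signal value, relative to a control alignment, and a −log10 q-value, per the file headers and layout. The lists taken were the ce11 peaks past an IDR threshold, the pooled peaks given to the IDR analysis, and those of each replicate; lists on ce10 were not used. Aligner, peak caller, IDR threshold and read numbers were not given in the sources used here, and depth is thus unknown.

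Summits were the peak start plus the offset in the list. Distances were measured to all transcript starts of 19973 protein-coding genes of Ensembl release 115, whose assembly WBcel235 is ce11, and sequences were read from the RefSeq WBcel235 genome. Ranks order each list by signal. Genes were counted with a summit within 5 kb, and replicates shared a summit within 100 bp. No test was run, since there is 1 group; counts stand beside the share of all genes. The members and lists were chosen with earlier results of these data known. Named were all 9 members, other pathway genes with an IDR summit, and for each transmitter the 3 of highest pooled signal. The rule for sequences, the strongest pooled summit with both replicates within 100 bp off chromosome I, gave the unc-25 window and the snf-11 summit in its 3′ UTR, which is not printed; the other windows were chosen after their values were seen. Counts of repeated words and of TTAGGC were also added then. Python 3.11.15, numpy 2.4.6, pandas 2.3.3 and matplotlib 3.10.9 were used, and the counting was tested on simulated data. The alternatives were other distances, starts, strengths, tolerances and lists, and unc-17 with cha-1 as 1 locus.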

Additional observations from a re-analysis of the deposited data

How the results depend on the processing

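At 10 kb the IDR count became 1, the pooled count 8 and the count of summits of both replicates 6, the last beside 48.6% of all genes. At 1 kb the pooled count was 0, replicate 1 gave 3, replicate 2 gave 4 and both replicates together 0, the last beside 12.4% of all genes. Of the 80 other pathway genes 27 had a pooled summit within 1 kb, beside 29.1% of all genes. At 2 kb replicate 1 gave 5 and both replicates together 1, the last beside 17.8% of all genes. Of the other pathway genes 35 had a pooled summit within 2 kb, beside 40.7% of all genes. With the pooled list limited to −log10 q of at least 1.3 the count was 0, beside 12.7% of all genes, and with its peaks above the median signal 2, beside 43.0%. Limiting either replicate to its strongest 816 peaks gave 0, beside 9.67% of all genes in replicate 1 and 9.55% in replicate 2. Taking 50 bp as the limit for a shared summit left 1 gene, unc-25, beside 22.9% of all genes, and taking 250 bp gave 3, beside 40.5%. With 1 replicate left out the list of the other, which holds more peaks, replaces the pooled one. The count of genes was 8 either way, beside 77.4% of all genes without replicate 1 and 75.8% without replicate 2. Distinct summits numbered 17 without replicate 1 and 12 without replicate 2. Counting the most upstream start alone, peak overlap, the nearest gene alone, or unc-17 and cha-1 as 1 locus, which was chosen after seeing the data, moved no count by over 1.5 times. Both replicates are biological by their labels, yet peak lists without read numbers give no error for a signal value.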
